A study of Mus musculus with 33 samples.

Results

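The RNA of P19 cells was compared between day 6 and day 3 of differentiation with DMSO, in 3 libraries of each day. P19 is a mouse embryonal carcinoma line, grown here in medium with charcoal-stripped serum. For differentiation the cells were kept as embryoid bodies, which are floating cell aggregates, for 2 days in bacteriological dishes with 1% DMSO, and were then moved to flasks with maintenance medium. The groups are called D3DMSO and D6DMSO, and the comparison used all 14706 measured genes that are not encoded by the mitochondrial genome, of 14717 genes in the table. These 6 libraries belong to a series of 33 samples, 15 of them RNA libraries, which also hold undifferentiated cells (D0) and cells treated with 1 µM all-trans retinoic acid in place of DMSO (D3RA and D6RA), 3 libraries a group. All groups come from a single carcinoma line, and the labels do not state that replicates came from separate cultures, so the tests measure only the spread between these samples. In bulk RNA, fewer cells of a type and less RNA of that type per cell cannot be told apart.

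In the embryo, cells that pass through the primitive streak switch on T (Brachyury), Tbx6 and Wnt and Fgf signals, and then leave that state as they become paraxial, lateral or cardiac mesoderm and vessel precursors. Heart muscle is recognised by genes of the contractile unit, the sarcomere, and of calcium release, while endothelium is recognised by Ets, Sox and Tie family genes. Hox genes are switched on along each cluster in the order of their place in it. DMSO treatment of aggregated P19 cells is a widely used way to obtain mesoderm and beating heart muscle from this line, and retinoic acid treatment a way to obtain neurons.

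The deposited table allowed the whole read counts behind each value to be recovered. The D3DMSO libraries held 5.86 to 6.87 M counts outside the mitochondrial genes and the D6DMSO libraries 19.6 to 19.9 M, so the later day was read more deeply. The 11 mitochondrial genes were at 0 counts in every D0, D3DMSO and D3RA library and took 49.8%, 51.8% and 55.8% of all counts in the D6DMSO libraries. A set of 4 genes, among them Lars2, took 3.09% to 32.8% of the other counts in the D3DMSO libraries and 0.572% to 1.27% in the D6DMSO libraries. Day, depth and the handling of mitochondrial reads cannot be told apart in this design. Levels are given as CPM, counts scaled to library size, on the deposited scale, on which 1 count was worth 0.138 to 0.205 CPM at D3DMSO and 0.042 to 0.0439 CPM at D6DMSO. Spearman's rank correlation across genes was 0.986 to 0.997 between libraries of the same day and 0.921 to 0.940 between libraries of different days, as a description, since genes are not independent replicates.

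Of the 14706 genes, 8291 (56.4%) passed the test between the days (limma on the deposited log2 values, Benjamini-Hochberg adjusted p under 0.05), which is the meaning of "called" throughout. Of these, 4161 genes (28.3%) were higher and 4130 (28.1%) lower at D6DMSO. At least 2-fold changes were called for 1573 genes (10.7%) upward and 1127 (7.66%) downward. The ends of the range were less even: 102 genes were called at least 16-fold higher and 30 at least 16-fold lower. The median log2 change over all genes was 0.01. Without overlap between the 3 and 3 libraries, called or not, 4775 genes (32.5%) were higher and 4502 (30.6%) lower at D6DMSO. Separate libraries, given below for single genes, were thus common in this comparison. Of 475 genes under 1 CPM in both groups, 51 were called higher and 65 lower.

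**Figure D1:**
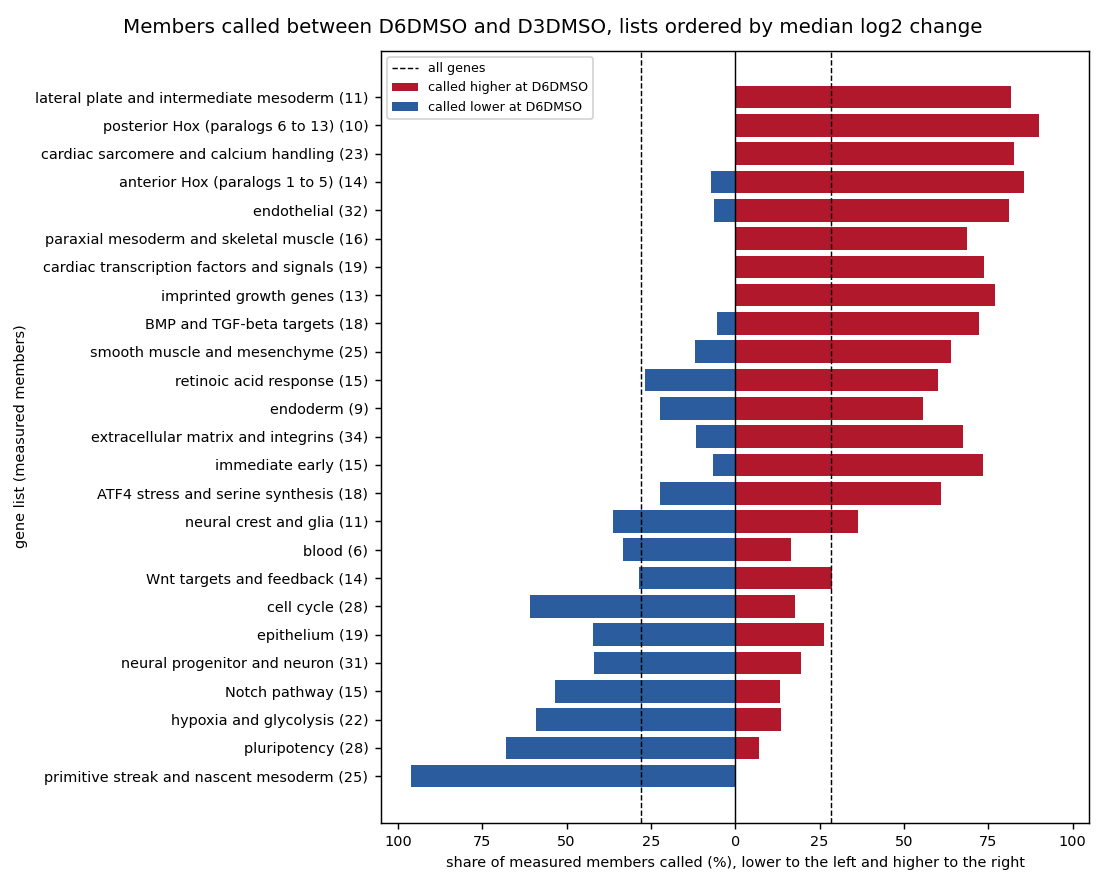
Share of the measured members of 25 gene lists called higher (right, red) or lower (left, blue) at D6DMSO than at D3DMSO, with the number of measured members in parentheses and lists ordered by their median log2 change. Dashed lines mark the shares over all genes, 28.3% higher and 28.1% lower. Heart, vessel, mesoderm and Hox lists extend to the right and the streak and pluripotency lists to the left.

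The genes used to mark this step moved in opposite directions between the 2 days. T, the transcription factor of the streak and of nascent mesoderm, was at 854, 891 and 877 CPM at D3DMSO and at 25.6, 25.2 and 25.6 CPM at D6DMSO. Undifferentiated cells held 3.08, 3.46 and 2.46 CPM, so the day 6 libraries lay between the undifferentiated and the day 3 level with no overlap. T fell by 5.10 ± 0.46 (SE) on the log2 scale, a 34.4-fold lower mean (adjusted p = 1.24e-07, n = 3 a group). Ryr2, the calcium release channel of the heart's sarcoplasmic reticulum, was at 1.93, 2.87 and 2.17 CPM at D3DMSO and at 49.2, 64.3 and 47.3 CPM at D6DMSO. All day 6 libraries stood far above all day 3 libraries, a 23.0-fold difference in means and 4.48 ± 0.26 on the log2 scale (adjusted p = 7.4e-10).

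Ankrd1, a cardiac ankyrin repeat protein of the sarcomere and nucleus, was at 0.138, 0.411 and 0 CPM at D3DMSO, 3 counts in all, and at 47.7, 57.0 and 39.6 CPM at D6DMSO. Its counts summed over the 3 libraries and divided by their summed library sizes differed 298-fold between the days (95% interval 102 to 1448, for counting error only). Ratios and "at least" folds of other genes with 0 to 3 counts at D3DMSO were pooled in the same way, so they differ from ratios of the mean CPM. Its log2 change of 7.88 ± 0.75 (adjusted p = 2.4e-07) depends on the 0.5 counts that the authors added to every value, as it does for any gene near 0. In undifferentiated cells Ankrd1 was at 4.51, 2.04 and 2.55 CPM, so its level was lowest at D3DMSO among these 3 groups. Meox1, a homeobox gene of the somites, was at 6.08, 7.39 and 4.65 CPM at D3DMSO and at 117, 85.0 and 126 CPM at D6DMSO. The groups were far apart, with an 18.1-fold higher mean at D6DMSO (log2 change 4.17 ± 0.49, adjusted p = 2.43e-06).

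**Figure D2:**
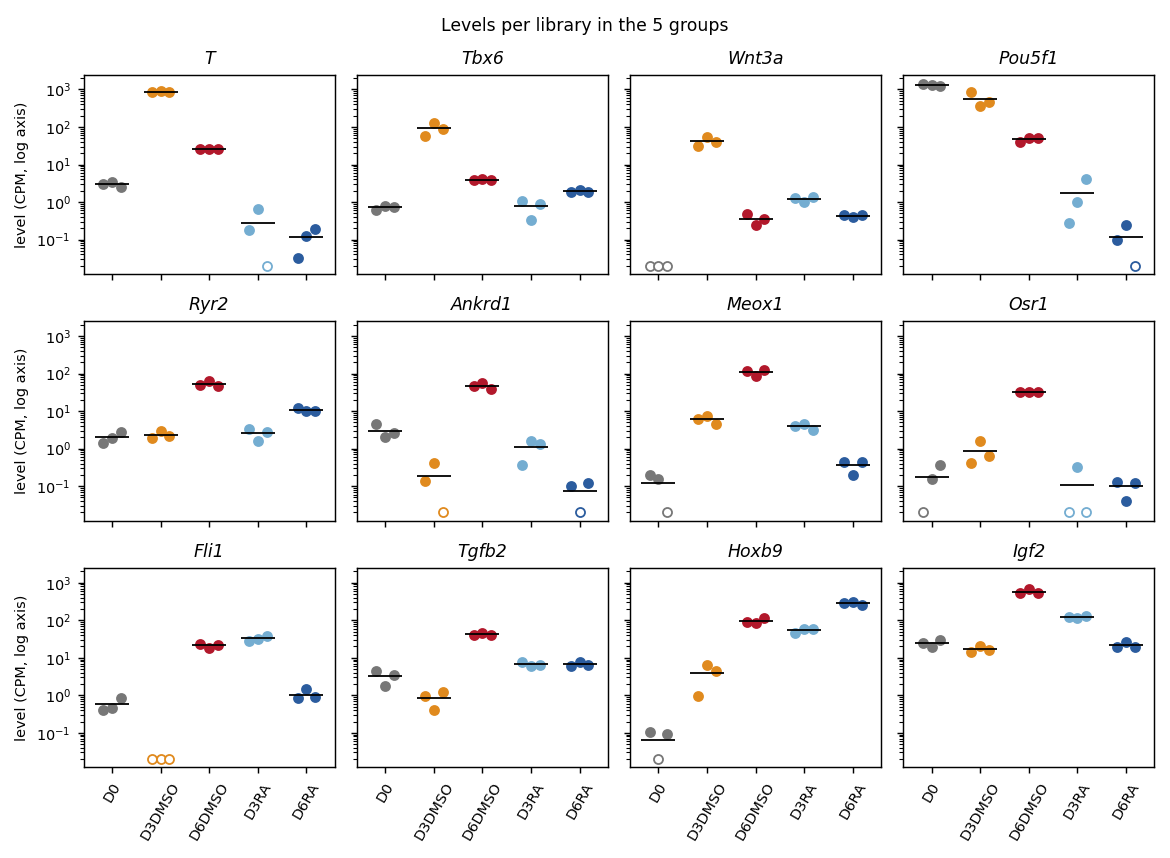
Level (CPM, log axis) of 12 genes in each of the 15 RNA libraries, by group; a horizontal line marks the group mean and an open circle at the bottom of a panel a library with 0 counts. T, Tbx6, Wnt3a and Pou5f1 are lower at D6DMSO than at D3DMSO, and the 8 genes of the lower panels are higher.

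The promoters of 3 of these markers are shown, and that of Tnnt2, the cardiac troponin T gene. Tnnt2 was added as 1 of the 3 called sarcomere and calcium genes with the highest log2 change, beside Ankrd1 and Ryr2. Each line gives the 250 bases before the gene's start in RefSeq (GRCm38.p6), read 5′ to 3′ on the gene's strand, with capitals where a searched motif was found.
T, chr17:8434173-8434422, plus strand: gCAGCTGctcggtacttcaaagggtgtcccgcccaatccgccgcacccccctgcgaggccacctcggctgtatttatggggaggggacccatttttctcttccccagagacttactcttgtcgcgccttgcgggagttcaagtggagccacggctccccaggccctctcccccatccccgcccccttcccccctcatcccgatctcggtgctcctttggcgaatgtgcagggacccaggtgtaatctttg
Ryr2, chr13:12106946-12107195, minus strand: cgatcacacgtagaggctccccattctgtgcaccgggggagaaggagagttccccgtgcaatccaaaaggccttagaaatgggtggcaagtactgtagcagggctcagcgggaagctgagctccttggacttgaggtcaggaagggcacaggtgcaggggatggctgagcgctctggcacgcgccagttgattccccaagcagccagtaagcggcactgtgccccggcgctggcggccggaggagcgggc
Ankrd1, chr19:36119845-36120094, minus strand: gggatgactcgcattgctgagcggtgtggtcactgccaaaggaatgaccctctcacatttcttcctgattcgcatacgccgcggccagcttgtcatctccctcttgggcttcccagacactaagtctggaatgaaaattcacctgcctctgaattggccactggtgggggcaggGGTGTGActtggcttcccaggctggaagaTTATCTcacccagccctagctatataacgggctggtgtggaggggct
Tnnt2, chr1:135836084-135836333, plus strand: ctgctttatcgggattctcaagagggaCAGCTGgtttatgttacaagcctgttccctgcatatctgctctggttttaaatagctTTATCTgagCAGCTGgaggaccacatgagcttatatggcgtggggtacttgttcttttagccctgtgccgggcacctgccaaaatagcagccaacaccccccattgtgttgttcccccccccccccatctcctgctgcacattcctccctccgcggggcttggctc
Motifs were searched on both strands, and no match in these windows overlapped another. A TATA box, where the basal machinery can settle, was taken as TATAAA, and other forms of it were not counted. The GATA motif, read by Gata4 and Gata6 in the heart and by Gata2 in vessels, was taken as AGATAA. An E-box of the kind read by muscle basic helix-loop-helix factors was taken as CAGCTG. For T-box factors the single site GGTGTGA was used, and the CArG box of serum response factor and the MEF2 box were searched too. Ankrd1 holds the GATA motif at -47 to -42 from its start, where the printed strand shows the reverse complement, and the T-box site at -76 to -70. Tnnt2, for which 1 of 2 listed starts is shown, holds the GATA motif at -166 to -161 and E-boxes at -223 to -218 and -157 to -152. The window of T holds an E-box at -249 to -244, and none of the searched letters occur in the Ryr2 window.

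Over all 27025 promoters of this length in the table, 10.3% held the GATA motif, 12.8% the E-box, 3.31% the T-box site, 13% the TATA box, 1.4% the CArG box and 3.01% the MEF2 box. Among the measured genes with a promoter, the shares were 5.28%, 11.5%, 2.68%, 6.06%, 1.23% and 1.37% in the same order. Of 18 sarcomere and calcium genes called higher at D6DMSO that have a promoter in the table, 5 held the GATA motif, 4 the CArG box, 3 the E-box, 2 the MEF2 box, 1 the T-box site and 0 the TATA box. Among the 1077 genes called 2-fold higher that have one, the CArG box was found in 2.14% and the GATA motif in 4.92%. Among the 714 called 2-fold lower, these shares were 0.84% and 5.88%. A match is a description of the letters and says nothing of binding in these cells.

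Streak and nascent mesoderm genes fell almost as a block. Of 25 measured members of 32 listed, 24 were called lower at D6DMSO, 0 higher, and Pdgfra was not called. Their median log2 change was -3.36, against 0.01 over all genes, and their summed level went from 2964 to 3396 CPM at D3DMSO to 395.7 to 432.1 CPM at D6DMSO. Wnt3a, a Wnt ligand of the streak and tail bud, was at 31.8, 55.2 and 41.0 CPM at D3DMSO and at 0.482, 0.252 and 0.35 CPM at D6DMSO. That 118-fold lower mean (log2 change of -6.81 ± 0.37, adjusted p = 3.62e-10) was the largest fall of the list, with no library near the other group. The other Wnt ligands of the list fell as well: Wnt3 by 3.24, Wnt8a by 3.17 and Wnt5b by 2.80 on the log2 scale.

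Tbx6, which commits cells to paraxial mesoderm, was at 56.2, 130 and 90.6 CPM at D3DMSO and at 3.90, 4.03 and 3.94 CPM at D6DMSO. Day 3 libraries differed more than 2-fold among themselves while the day 6 libraries were nearly alike, and the fall of 4.46 ± 0.32 on the log2 scale (adjusted p = 9.54e-09) was well beyond that spread. Gsc, the homeobox gene of the anterior streak and organizer, was at 18.6, 17.9 and 12.5 CPM at D3DMSO and at 0.219, 0.126 and 0.306 CPM at D6DMSO (log2 change of -6.16 ± 0.43, adjusted p = 6.72e-09). Eomes, a T-box factor of the anterior streak, went from 94.0, 96.1 and 92.5 CPM to 6.23, 9.49 and 8.88 CPM. Nodal, the ligand that opens the streak programme, fell by 3.04 ± 0.46 and its antagonist Lefty2 by 4.82 ± 0.33 on the log2 scale. Fst, the secreted activin inhibitor follistatin, went from 574, 478 and 566 CPM to 30.3, 28.9 and 32.4 CPM, again without overlap.

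Some of the list fell less far. Cdx2, a homeobox factor of the posterior streak, was still at 10.3, 10.0 and 10.9 CPM at D6DMSO after 79.1, 117 and 90.2 CPM at D3DMSO. Nkx1-2, a marker of the posterior neuromesodermal region, fell by 1.53 ± 0.40 and Amot, a Hippo pathway scaffold, by 0.77 ± 0.12 on the log2 scale, and the call of Amot was lost when libraries were thinned to equal totals (adjusted p = 0.0765). Pdgfra, a receptor kept by many later mesoderm cells, was at 77.1, 144 and 123 CPM at D3DMSO and at 103, 112 and 74.5 CPM at D6DMSO. Its libraries overlapped and the change of -0.22 ± 0.21 did not pass the test (adjusted p = 0.389).

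Pluripotency genes were mostly lower at D6DMSO, but less uniformly. Of 28 measured members, 19 were called lower, 2 higher and 7 not called, with a median log2 change of -1.10. Pou5f1, the core pluripotency factor Oct4, was at 835, 369 and 461 CPM at D3DMSO and at 40.2, 51.4 and 49.5 CPM at D6DMSO. Replicate 1 of D3DMSO held about 2 times the level of the other day 3 libraries, all of them far above day 6 (log2 change of -3.48 ± 0.83, adjusted p = 0.00199). Nanog, a second core factor, went from 91.6, 43.3 and 69.4 CPM to 11.8, 13.1 and 11.2 CPM, and Fgf4, a ligand of pluripotent cells, from 33.3, 47.6 and 44.0 CPM to 1.10, 1.13 and 0.831 CPM. Dnmt3b, the de novo DNA methyltransferase of early embryonic cells, fell by 2.33 ± 0.14 on the log2 scale.

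Sox2 lay apart from these genes, with 77.5, 55.4 and 69.2 CPM at D3DMSO and 68.3, 42.2 and 38.9 CPM at D6DMSO. Those libraries overlap, and the call (log2 change of -0.47 ± 0.16, adjusted p = 0.0218) was lost in 7 of 20 alternatives, with adjusted p up to 0.756. The 2 members that rose, Lin28b by 0.54 ± 0.08 and Trim71 by 0.51 ± 0.07 on the log2 scale, both act on RNA in the let-7 pathway of early development. D3DMSO replicate 1 was the highest of its group for 15 of 27 pluripotency genes with at least 1 CPM and the lowest for 15 of 25 streak genes, where each replicate was highest or lowest for 30.7% to 37.1% of all genes. Without it, 14 pluripotency genes were called lower and 25 of 25 streak genes, Pdgfra among them.

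Cardiac regulators were called higher at D6DMSO in 14 of 19 measured members of 26 listed, against 28.3% of all genes. None was called lower, and the median log2 change was 1.5. Gata5, Tbx5, Hand1, Hand2, Irx4, Bmp5 and Bmp10 were not among the measured genes. Smyd1, a muscle-restricted methyltransferase needed for heart formation, was at 0.414, 0 and 0.31 CPM at D3DMSO and at 40.4, 51.9 and 32.2 CPM at D6DMSO, a 172-fold higher mean (log2 change 7.25 ± 0.68, adjusted p = 2.17e-07). Myocd, the coactivator of serum response factor in cardiac and smooth muscle, was at 0.69, 0.616 and 0.775 CPM at D3DMSO and at 10.5, 14.4 and 11 CPM at D6DMSO. Bmp4, a ligand that promotes the cardiac and lateral fates, was at 3.59, 5.34 and 3.25 CPM and then at 58.1, 67.0 and 56.9 CPM. For each of these genes the 2 groups were separated by more than 10-fold at their nearest libraries.

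Later in the list came the transcription factors Tbx2 (log2 change 3.07 ± 0.40), Mef2c (2.54 ± 0.20), Isl1 (2.01 ± 0.36), Mef2d (1.65 ± 0.16) and Gata6 (1.63 ± 0.36), all called higher. Isl1, a marker of the second heart field, also belongs to the neuron list. Gata4, a central cardiac regulator, was at 6.77, 8.83 and 6.82 CPM at D3DMSO and at 16.6, 23.3 and 15 CPM at D6DMSO. The libraries did not overlap and the mean was 2.45-fold higher, but the change of 1.27 ± 0.54 did not pass the test (adjusted p = 0.0573). Tbx1, Hopx, Bmp2 and Fgf10 were not called either. The count depends on the setting. With the D3DMSO and D6DMSO libraries fitted alone, 17 of the 19 regulators were called higher. With libraries thinned to the smallest scaled size, 11 were.

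Sarcomere and calcium handling genes were called higher in 19 of 23 measured members of 40 listed, and lower in 0. Heart muscle markers such as Myh7, Myl2, Myl3, Tnni3, Tnnc1, Mybpc3, Nppa and Nppb were not among the measured genes. The median log2 change was 2.29, and the summed level went from 601.2 to 660.5 CPM to 1806 to 2045 CPM. Tnnt2 was at 0, 0.411 and 0.155 CPM at D3DMSO, 3 counts in all, and at 6.67, 4.33 and 3.98 CPM at D6DMSO. The ratio of its pooled counts over pooled library sizes was 30.8 (95% counting interval 10.5 to 150). Ttn, the giant spring protein titin, was at 6.77, 10.5 and 10.5 CPM at D3DMSO and at 120, 126 and 72.3 CPM at D6DMSO (log2 change 3.49 ± 0.23, adjusted p = 3.04e-09). Myom1, the M-band protein myomesin, went from 2.07, 1.44 and 2.79 CPM to 37.9, 44.6 and 41.1 CPM. All 3 genes separated the days completely.

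The myosin heavy chain Myh6 was at 0.552, 2.05 and 0.775 CPM at D3DMSO and at 20.9, 23.0 and 12.7 CPM at D6DMSO. Cardiac actin Actc1 was at 12, 10.7 and 9.45 CPM and then at 61.6, 69.3 and 56.8 CPM. Tpm1, a tropomyosin of many muscle and other cells, went from 211, 196 and 159 CPM to 890, 949 and 894 CPM, which is the member that moves the summed level most. Among the calcium genes, the exchanger Slc8a1 rose by 1.87 ± 0.16 and the pump Atp2a2 by 0.36 ± 0.09 on the log2 scale, while Pln, the pump's inhibitor phospholamban, was at 0.552, 1.44 and 0.62 CPM and at 1.27, 1.81 and 1.27 CPM and was not called. Myl7, the atrial light chain, had overlapping libraries (4, 1.85 and 0.929 CPM at D3DMSO, 10.9, 8.19 and 3.5 CPM at D6DMSO), and its call (adjusted p = 0.0104) was lost without D3DMSO replicate 3 or D6DMSO replicate 1. Actn2, Hcn4 and Hspb8 were not called.

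**Figure D3:**
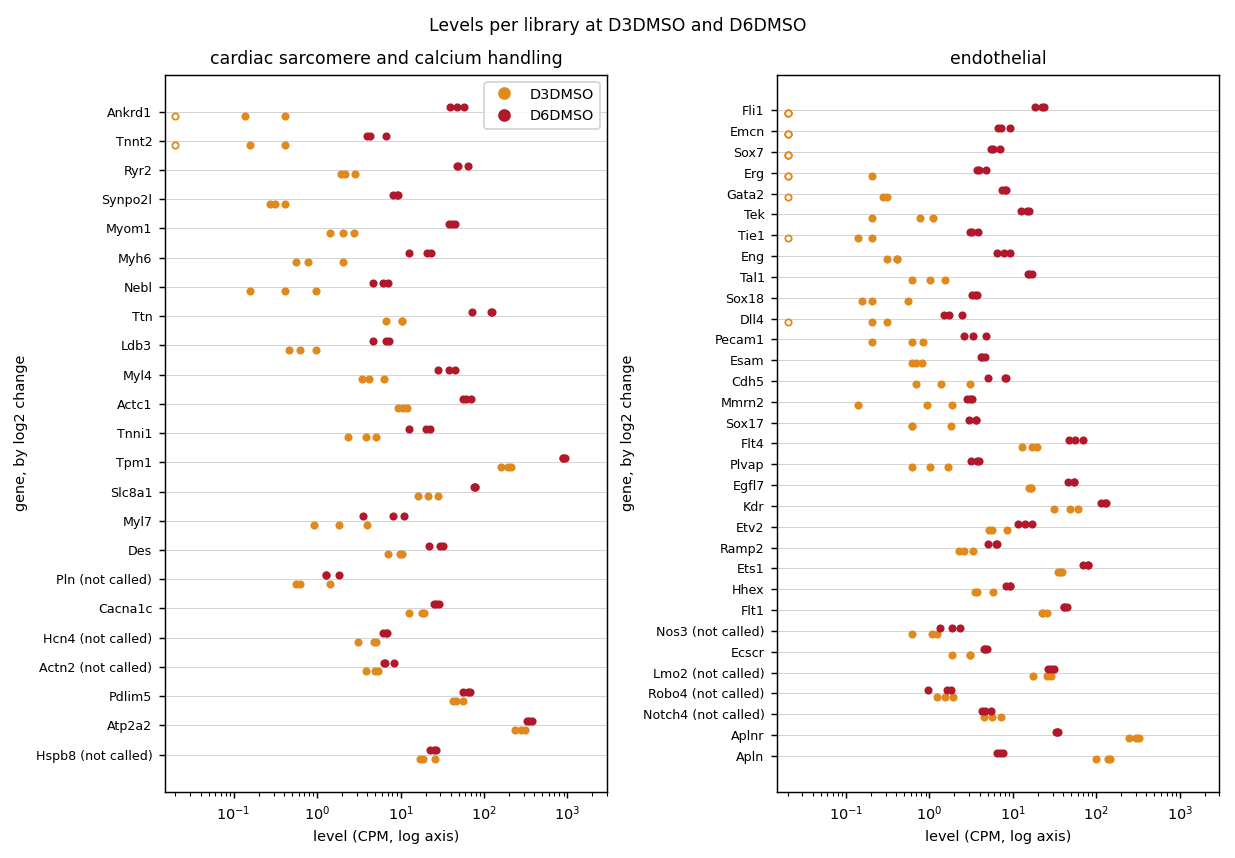
Level (CPM, log axis) of each measured gene of the cardiac sarcomere and calcium list (left) and of the endothelial list (right), 1 point per library, orange for D3DMSO and dark red for D6DMSO; open circles at the left edge are libraries with 0 counts. Genes are ordered by log2 change from the top. Most genes are separated between the days, and Apln and Aplnr at the bottom right are the only endothelial genes called lower.

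The day 6 libraries differed among themselves in these lists. D6DMSO replicate 2 was the highest of its group for 17 of 23 sarcomere genes and 14 of 18 cardiac regulators with at least 1 CPM, and the lowest for 20 of 32 endothelial genes, where each replicate was highest or lowest for 30.8% to 37.8% of all genes. Without that library, 19 sarcomere genes were called higher and 0 lower, and 24 endothelial genes higher and 2 lower.

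Paraxial mesoderm and skeletal muscle genes were called higher in 11 of 16 measured members of 29 listed and lower in 0. The median log2 change was 1.78. Besides Meox1, Pax3, the paired-box gene of the dermomyotome, was at 0.414, 0 and 0.155 CPM at D3DMSO and at 12.1, 9.62 and 10.9 CPM at D6DMSO (log2 change 5.58 ± 0.35, adjusted p = 1.71e-09). Sim1, a transcription factor gene of the lateral somite, had 0 counts in all day 3 libraries and was at 4.78, 1.85 and 3.37 CPM at D6DMSO, at least 20.5-fold higher over a floor of 3 counts for the group. Those 2 genes were absent or nearly so at day 3 and present in every day 6 library. Foxc2, a forkhead factor of the somites, rose by 1.95 ± 0.57 and Eya1, a cofactor of homeobox factors, by 1.85 ± 0.12 on the log2 scale. Tcf15 and Foxc1, also somite genes, were not called: Tcf15 was at 1.80, 0.821 and 1.08 CPM and then at 1.01, 0.714 and 0.788 CPM. Acta1, skeletal actin, rose from 2.35, 0.821 and 0.31 CPM to 11.4, 11.3 and 12.2 CPM, while Myh3, the embryonic myosin of skeletal muscle, was at 1.38, 1.23 and 0.775 CPM and at 1.14, 1.13 and 1.27 CPM and was not called.

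Lateral plate and intermediate mesoderm had a median log2 change of 4.03, with 9 of 11 measured members called higher and 0 lower, of 24 genes listed. The median was the highest of the 25 lists on the deposited values, but posterior Hox genes came first without D3DMSO replicate 2 (4.56 against 3.67), with libraries thinned to the smallest scaled size (3.62 against 3.00) and with libraries thinned to equal totals (3.81 against 3.63). Pax8, a paired-box gene of the kidney and thyroid primordia, had 0 counts at D3DMSO and was at 11.3, 14.5 and 16.8 CPM at D6DMSO, at least 87.9-fold higher. Osr1, an early gene of intermediate and lateral mesoderm, was at 0.414, 1.64 and 0.62 CPM and then at 33.0, 31.7 and 33.3 CPM. Twist1, a factor of mesenchyme, went from 1.10, 0.616 and 1.08 CPM to 38.5, 32.8 and 26.8 CPM. None of the 3 genes had a day 3 library near its day 6 level. Wt1, the gene of the coelomic epithelium, epicardium and kidney, was at 0.414, 0.205 and 0.775 CPM and then at 12.4, 10.8 and 9.93 CPM, and Prrx2, a limb and lateral mesenchyme gene, went from 5.94, 7.59 and 6.2 CPM to 38.8, 39.4 and 33.1 CPM. Bmper, a secreted BMP modulator, was not called.

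Endothelial genes were called higher in 26 of 32 measured members and lower in 2, with a median log2 change of 1.81. Fli1, an Ets factor at the head of the endothelial programme, had 0 counts in all D3DMSO libraries and was at 23.6, 18.3 and 22.5 CPM at D6DMSO, at least 133-fold higher (log2 change 8.03 ± 0.31, adjusted p = 4.93e-12). Emcn, the endothelial sialomucin endomucin, had 0 counts at D3DMSO and was at 9.38, 6.68 and 7.31 CPM at D6DMSO. Sox7, an endothelial Sox factor, was likewise at 0 counts and then at 5.44, 5.80 and 7.09 CPM. For these 3 genes every day 3 library was empty and every day 6 library was not.

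The angiopoietin receptor Tek was at 1.10, 0.205 and 0.775 CPM at D3DMSO and at 15.6, 12.7 and 14.8 CPM at D6DMSO (log2 change 4.41 ± 0.34), and Tal1, a factor of blood and vessel precursors, rose from 1.52, 1.03 and 0.62 CPM to 17.2, 15.3 and 15.7 CPM. Kdr, the VEGF receptor of the earliest vessel precursors, was already at 31.5, 60.3 and 48.5 CPM at D3DMSO and reached 129, 114 and 130 CPM (log2 change 1.45 ± 0.28, adjusted p = 0.000381). Etv2, the transient master factor of this lineage, was at 8.42, 5.13 and 5.58 CPM and at 16.8, 11.6 and 13.9 CPM, a call (adjusted p = 0.0189) that was lost in 5 of 20 alternatives. Cdh5, Pecam1 and Esam, which join endothelial cells, rose by 2.20 ± 0.44, 2.6 ± 0.36 and 2.47 ± 0.28 on the log2 scale, to group means of a few CPM.

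Apln and Aplnr, the ligand and receptor of the apelin pathway, went the other way. Apln was at 146, 98.9 and 139 CPM at D3DMSO and at 6.49, 6.97 and 7.66 CPM at D6DMSO, and Aplnr at 245, 330 and 297 CPM and then at 32.9, 34.5 and 33.7 CPM. Both fell without overlap, by 4.16 ± 0.23 and 3.10 ± 0.27 on the log2 scale. With these 2 genes in the sum, the level of the whole list was 572.4 to 639.8 CPM at D3DMSO and 534 to 613.5 CPM at D6DMSO, while its median change was upward. Blood genes were few: of 6 measured members of 21 listed, Runx1, the regulator of the first blood cells, was called higher at 0.69, 1.23 and 0.465 CPM against 3.95, 2.73 and 3.28 CPM (adjusted p = 0.00777, 0.0573 when libraries were thinned to the smallest scaled size), and Epor and Myb were called lower, not so when libraries were thinned to equal totals (adjusted p = 0.208 and 0.505).

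Smooth muscle and mesenchyme genes were called higher in 16 of 25 measured members and lower in 3, with a median log2 change of 1.25 and a summed level that went from 755.9 to 825.1 CPM to 1989 to 2177 CPM. Tagln, the smooth muscle protein SM22, was at 11.5, 6.77 and 8.67 CPM at D3DMSO and at 144, 171 and 146 CPM at D6DMSO, a 17.1-fold higher mean (log2 change 4.11 ± 0.19, adjusted p = 3.96e-11). Acta2, smooth muscle actin, which early heart muscle also uses, was at 31.6, 39.2 and 30.7 CPM and then at 276, 322 and 274 CPM. Every day 6 library was more than 6 times every day 3 library for both genes. Ccn1 and Ccn2, secreted targets of serum response factor and YAP, rose by 3.00 ± 0.16 and 3.59 ± 0.26 on the log2 scale. Myh11, the smooth muscle myosin heavy chain, was at 7.04, 8 and 8.21 CPM and at 4.25, 3.28 and 3.33 CPM and did not pass the test (adjusted p = 0.0556), and Postn, a matrix protein of mesenchyme, fell by 2.86 ± 0.42.

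Genes of the extracellular matrix and of integrins were called higher in 23 of 34 measured members and lower in 4, with a median log2 change of 0.89. Fibrillar collagen Col1a1 was at 0.829, 1.03 and 1.39 CPM at D3DMSO and at 30.3, 42.9 and 29.5 CPM at D6DMSO. Col12a1, a collagen that coats fibrils, went from 0.967, 1.64 and 1.24 CPM to 40.6, 57.7 and 52.2 CPM, and the basement membrane collagen Col18a1 from 59.8, 59.1 and 64.0 CPM to 442, 465 and 493 CPM. All 3 rose without overlap, and Col18a1 had the smallest SE of the list (2.93 ± 0.07, adjusted p = 2.22e-14). Laminin and receptor genes of the earlier embryonic epithelium, Lama1 and Itga6, fell by 1.33 ± 0.24 and 0.92 ± 0.12. Fn1, fibronectin, was at 574, 1187 and 1604 CPM and at 591, 800 and 906 CPM and was not called.

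Genes of BMP and TGF-beta signalling were called higher in 13 of 18 measured members and lower in 1, with a median log2 change of 1.30. Among ligands and inhibitors, Tgfb2 was at 0.967, 0.411 and 1.24 CPM at D3DMSO and at 40.8, 47.1 and 41.1 CPM at D6DMSO (log2 change 5.60 ± 0.32, adjusted p = 7.2e-10). Its libraries were separated by more than 30-fold, while Tgfb1 was not called, at 12.6, 10.9 and 13.6 CPM and then at 7.37, 9.91 and 7 CPM. Nog and Grem1, secreted BMP inhibitors, rose by 2.96 ± 0.37 and 4.45 ± 0.49 on the log2 scale, Grem1 from 2 counts in the 3 day 3 libraries. The target genes Msx2 (3.07 ± 0.28), Id2 (2.42 ± 0.13), Smad7 (1.27 ± 0.17), Smad6 (1.24 ± 0.19), Id1 (0.77 ± 0.12) and Id3 (0.67 ± 0.13) were called higher. Tgfbi, a TGF-beta-induced matrix protein, was at 0.414, 0 and 0 CPM, 3 counts in all, and then at 15.4, 16.3 and 14.1 CPM. The ratio of its pooled counts over pooled library sizes was 94.7 (95% counting interval 32.3 to 460).

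Hox genes were higher at D6DMSO in nearly all paralog groups. Of 14 measured genes of paralog groups 1 to 5, 12 were called higher and 1 lower (median log2 change 2), and of 10 measured genes of the groups from 6 on, 9 were called higher and 0 lower (median 3.83). The difference between the 2 sets of genes was not tested. Hoxb9 was at 0.967, 6.57 and 4.49 CPM at D3DMSO and at 89.4, 85.2 and 112 CPM at D6DMSO (log2 change 4.91 ± 0.45, adjusted p = 1.64e-07), and Hoxb6 was at 0, 1.03 and 0.62 CPM and then at 12.5, 10.3 and 13.8 CPM. Hoxc4 rose from 0.414, 1.44 and 1.08 CPM to 20.7, 19.9 and 21.4 CPM. In all of these the day 6 libraries were alike and the day 3 libraries uneven but far lower.

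At the anterior end, Hoxb1, the first gene of the Hoxb cluster to be switched on, was at 20.9, 50.9 and 37.3 CPM at D3DMSO and at 17.3, 17.0 and 24.2 CPM at D6DMSO. These libraries overlap, and the call (log2 change of -0.83 ± 0.29, adjusted p = 0.0233) was lost in 6 of 20 alternatives, with adjusted p from 0.00187 to 0.188. Hoxa2 and Hoxd9 were not called. D3DMSO replicate 1 was the lowest of its group for 11 of 11 anterior and 5 of 5 posterior Hox genes with at least 1 CPM there, and replicate 2 the highest for 10 of 11 and 5 of 5. Without replicate 1, the counts were 11 higher and 1 lower of the anterior genes, and 9 higher and 0 lower of the posterior genes with a median of 3.18. Without replicate 2 that median was 4.56, again with 9 higher and 0 lower. Hox genes lie close together and have antisense neighbours, and whether strand was used in counting is not given in the sources used here, so single Hox values can hold reads of a neighbour.

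**Figure D4:**
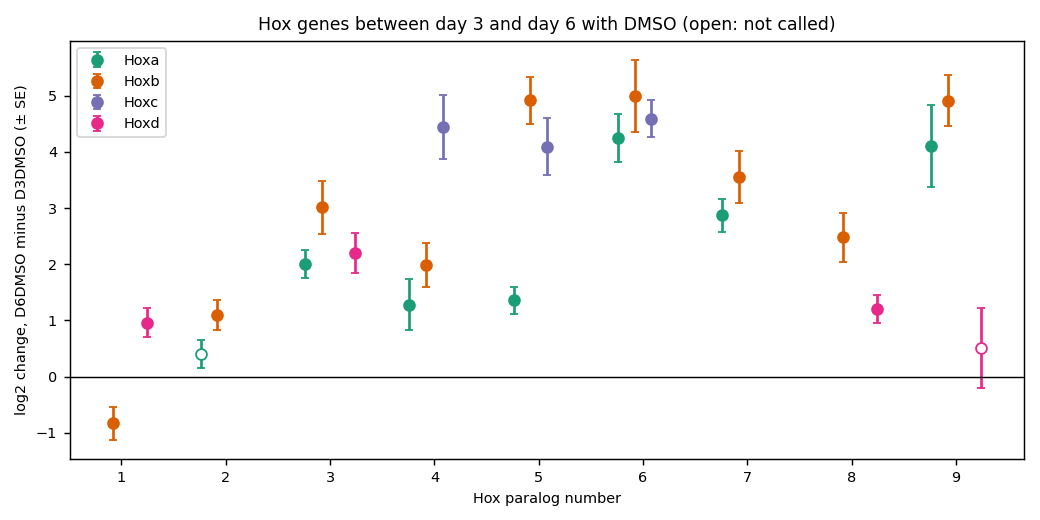
Log2 change (D6DMSO minus D3DMSO, ± SE) of 23 of the 24 measured Hox genes against their paralog number, coloured by cluster; open circles were not called. Changes run from Hoxb1 below 0 to Hoxb6, Hoxb5 and Hoxb9 near 5.

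Genes that respond to or handle retinoic acid changed in both directions, 9 of 15 measured members higher and 4 lower, with a median log2 change of 1.11, in cells to which none was added. Meis1, a homeobox partner of Hox proteins, was at 3.73, 3.90 and 4.96 CPM at D3DMSO and at 191, 186 and 191 CPM at D6DMSO, a 45.1-fold higher mean (log2 change 5.48 ± 0.16, adjusted p = 2.12e-13). Rarb, the retinoic acid receptor that is itself a target, was at 1.52, 1.85 and 1.39 CPM and then at 38.2, 42.9 and 37.9 CPM. Stra6, the retinol uptake receptor, rose by 3.62 ± 0.31 and Dhrs3, a retinal reductase, by 2.53 ± 0.13 on the log2 scale. Aldh1a2, the main enzyme of retinoic acid synthesis in the embryo, fell from 188, 245 and 208 CPM to 32.8, 24.9 and 35.0 CPM, and Cyp26a1, the enzyme that degrades it, from 83.5, 93.0 and 67.4 CPM to 17.8, 19 and 18.4 CPM. Both enzymes were lower in every day 6 library, while the receptors Rarb and Rara (1.11 ± 0.09) were higher in every one.

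The orphan nuclear receptors Nr2f1 and Nr2f2, known as COUP-TF factors of the atria, vessels and mesenchyme, were among the 10 largest rises of all genes that reached 10 CPM in a group mean. Nr2f1 had 1 count in the day 3 libraries (0, 0 and 0.155 CPM) and was at 58.8, 45.5 and 55.1 CPM at D6DMSO. Its pooled ratio of 985 has a counting interval of 177 to 38896, and its log2 change of 8.81 ± 0.31 was the highest of the comparison among such genes. Nr2f2 was at 0.276, 0.411 and 0.465 CPM and then at 53.4, 53.5 and 62.8 CPM, with no library between the groups. Also in that set were Fli1, Pax8, Ankrd1, Smyd1, Tgfbi, Clec1b, a lectin receptor known from platelets that went from 0 counts to 22.2, 15.4 and 20.7 CPM, Igfbp5, an IGF-binding protein (1.80, 3.08 and 2.01 CPM to 170, 201 and 158 CPM), and Hapln1, a hyaluronan link protein of the heart cushions and cartilage (0.69, 2.46 and 1.39 CPM to 104, 112 and 93.9 CPM).

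The 10 largest falls were Lars2, Wnt3a, Gsc, Fgf4, T, Dennd2c, Lefty2, Pid1, Tbx6 and Slc44a5. Lars2, a mitochondrial leucyl-tRNA synthetase gene, was at 9886, 161711 and 108832 CPM at D3DMSO and at 189, 92.6 and 140 CPM at D6DMSO. It is among the 4 genes with uneven shares of the counts, varied more than 10-fold within D3DMSO, and its fall of 8.69 ± 1.36 has the widest error of these genes. Dennd2c, a regulator of Rab GTPases, went from 74.4, 113 and 101 CPM to 3.38, 3.95 and 2.76 CPM and Pid1 from 19.9, 26.5 and 29.6 CPM to 1.18, 1.09 and 0.875 CPM.

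Imprinted growth genes were higher at D6DMSO with no exception among those called on the deposited values. Of 13 measured members, 10 were called higher and 0 lower, with a median log2 change of 1.39 and a summed level that went from 1809 to 2559 CPM to 7295 to 8641 CPM. Igf2, the growth factor expressed from the paternal copy, was at 14.1, 21.1 and 16.4 CPM at D3DMSO and at 518, 684 and 549 CPM at D6DMSO (33.9-fold, log2 change 5.09 ± 0.17, adjusted p = 6.15e-13). H19, the noncoding RNA of the same domain expressed from the maternal copy, was at 30.9, 47.4 and 26.8 CPM and then at 1199, 1248 and 974 CPM. Both genes of the domain rose by more than 30-fold in the mean, and in every library. Mest went from 81.1, 68.6 and 75.0 CPM to 687, 803 and 767 CPM, Dlk1 rose by 3.23 ± 0.28, Peg10 by 1.67 ± 0.17 and Peg3 by 1.33 ± 0.10 on the log2 scale. The reads do not separate the parental copies, and Igf2 and Igf2r overlap antisense genes. Grb10, Phlda2 and Cdkn1c were not called. In 2 alternatives 10 members were called higher and 1 lower. These were the compared groups alone with a replicate block, and values weighted by their precision (voom).

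In the Notch pathway, 8 of 15 measured members were called lower and 2 higher, with a median log2 change of -0.59. The somite clock ligand Dll1 was at 111, 230 and 166 CPM at D3DMSO and at 10.4, 8.61 and 9.54 CPM at D6DMSO (log2 change of -4.09 ± 0.19, adjusted p = 4.38e-11). Dll3, which also belongs to the streak list as Dll1 does, fell by 3.80 ± 0.17, and the clock genes Lfng and Nrarp by 2.11 ± 0.16 and 2.50 ± 0.13. The vessel ligand Dll4 rose from 3 counts in all day 3 libraries to 1.71, 1.51 and 2.49 CPM and the receptor Notch2 by 1.16 ± 0.15, while Jag1, Jag2, Hey1, Hey2 and Notch3 were not called. Of 14 Wnt targets and feedback genes, 4 were called higher and 4 lower with a median of -0.08, close to the shares of all genes. Sp5, a direct Wnt target of the streak, fell by 3.24 ± 0.42, and Lgr5, the R-spondin receptor, rose by 1.98 ± 0.29. The falls of Axin2 and Lef1 were lost when libraries were thinned to equal totals (adjusted p = 0.15 and 0.282).

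Epithelial genes were mixed, with 5 of 19 called higher and 8 lower, where 28.3% and 28.1% of all genes were. Lower calls numbered 5 without D3DMSO replicate 1, D3DMSO replicate 3, D6DMSO replicate 1 or D6DMSO replicate 3, and 4 under either thinning. The adhesion genes Cdh1 and Epcam fell from 92.5, 110 and 149 CPM to 18.3, 24.3 and 21.8 CPM and from 116, 72.7 and 96.2 CPM to 16.5, 19.9 and 18 CPM. In contrast the simple-epithelium keratins rose: Krt18 was at 41.7, 23.2 and 29.3 CPM at D3DMSO and at 206, 233 and 202 CPM at D6DMSO. Krt8 and Krt19 rose by 1.19 ± 0.24 and 2.33 ± 0.59 on the log2 scale. Of 9 measured endoderm genes of 23 listed, 5 were called higher and 2 lower. Dab2 and Plat, each also expressed by other cell types, rose by 3.05 ± 0.20 and 3.41 ± 0.19, and Apoe was not called.

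Neural genes were lower more often than higher. Of 31 measured members of the neural progenitor and neuron list, 13 were called lower, 6 higher and 12 not called, with a median log2 change of -0.56 and a summed level that went from 408 to 448.1 CPM to 221.6 to 234.2 CPM. The neuronal cytoskeleton genes Tubb3 (45.0, 36.3 and 39.0 CPM to 6.31, 7.39 and 6.30 CPM) and Nefl (35.8, 26.1 and 25.6 CPM to 2.50, 2.86 and 2.06 CPM) were lower in every day 6 library. Pax6, an eye and neural tube gene, rose from 0.967, 0.411 and 0.929 CPM to 8.02, 6.17 and 6.74 CPM and Gap43 by 2.83 ± 0.15, while the proneural genes Neurog1, Neurog2, Neurod1 and Neurod4 stayed under 1.5 CPM in all 6 libraries and were not called. Among 11 neural crest and glia genes, 4 were called higher and 4 lower, where 28.3% and 28.1% of all genes were. Ednrb, the endothelin receptor of crest and of some mesoderm, was at 0.276, 0.205 and 0.155 CPM and then at 21.0, 22.2 and 19.2 CPM (log2 change 6.16 ± 0.15), and Fabp7, a radial glia gene, fell by 4.21 ± 0.23.

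Lists of growth and metabolism were mostly lower. Of 28 cell cycle genes, 17 were called lower and 5 higher, with a median log2 change of -0.31 and no fall of 2-fold. When libraries were thinned to equal totals outside the mitochondrial genes, 1 was called lower and 5 higher with a median of -0.03, and that setting, which changes depth and scaling together, moved the median of all genes up by 0.27. Thinned to the smallest scaled size, which lowers the depth and keeps the scaling, 16 were called lower and 5 higher with a median of -0.28. Ccnd2, a D-type cyclin, stood out with 168, 168 and 245 CPM at D3DMSO and 507, 704 and 703 CPM at D6DMSO. Hypoxia and glycolysis genes were called lower in 13 of 22 and higher in 3 (median -1.03), and 12 were called lower under either thinning. Bnip3, a mitophagy receptor induced by low oxygen, fell by 2.22 ± 0.16, the glycolytic enzymes Pfkl by 1.86 ± 0.11 and Ldha by 1.64 ± 0.13, while Vegfa rose by 1.5 ± 0.15.

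Immediate early genes were called higher in 11 of 15 and lower in 1, with a median log2 change of 0.87. Fosl2 was at 6.08, 5.54 and 6.35 CPM and then at 26.8, 33.6 and 32.3 CPM, and Myc at 13.1, 8.83 and 13 CPM and then at 37.4, 41.0 and 48.1 CPM. ATF4 stress and serine synthesis genes were called higher in 11 of 18 and lower in 4 (median 0.29). D3DMSO replicate 1 was the highest of its group for 14 of the 18 and replicate 2 the lowest for 12, and the count of higher genes was 13 without replicate 1 and 9 without replicate 2. Nupr1, a stress-induced chromatin protein, rose by 3.01 ± 0.60 and Atf3 by 1.65 ± 0.15, and Ddit4, an inhibitor of mTORC1, fell by 1.78 ± 0.18. The part of culture stress or handling in these changes was not tested.

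The same interval with retinoic acid, D6RA against D3RA, shares no library with the DMSO comparison, but its days differ in depth as well. The D3RA libraries held 3.55 to 9.82 M counts outside the mitochondrial genes and the D6RA libraries 21.9 to 28.7 M. The 4 uneven genes took 1.97% to 45.7% of the former counts, and 1 count was worth up to 0.457 CPM at D3RA. Mitochondrial genes took 41.6% to 42.6% of all counts at D6RA. Day, depth and the handling of mitochondrial reads cannot be told apart in either change or in their difference. With retinoic acid 10182 of 14706 genes (69.2%) were called, 5466 higher (37.2%) and 4716 lower (32.1%). Of the genes called higher with DMSO, 2469 were also called higher with retinoic acid, 59.3% of the DMSO set and 45.2% of the retinoic acid set, and 682 were called lower there. Of those called lower with DMSO, 2361 were called lower in both (57.2% and 50.1%) and 792 higher with retinoic acid. The test of the difference between the 2 changes called 7138 genes (48.5%), 3399 with a higher change with DMSO (23.1%) and 3739 with a lower one (25.4%). That difference was called in the direction of the DMSO change for 1555 of its risers (37.4%) and 1568 of its fallers (38%).

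Some lists fell with both treatments. The median log2 change of pluripotency genes was -1.25 with retinoic acid and -1.10 with DMSO. It was -0.65 and -1.03 for hypoxia and glycolysis genes, and -0.90 and -0.31 for cell cycle genes. Of the 28 cell cycle genes, 22 had a higher change with DMSO and 2 a lower one. In several other lists most members differed between the treatments. Changes were higher with DMSO in 28 of 32 endothelial genes, whose median log2 change with retinoic acid was -2.76, in 15 of 23 sarcomere genes (0.02), in 18 of 25 smooth muscle genes (-1.82), in 13 of 19 cardiac regulators (-0.64) and in 10 of 13 imprinted genes (-0.49). Among Hox genes, 12 of 14 anterior and 9 of 10 posterior members had a higher change with DMSO, with medians of -0.04 and 0.66 with retinoic acid. Fli1 was at 28.6, 32.6 and 37.9 CPM at D3RA and at 0.828, 1.43 and 0.877 CPM at D6RA. The factor was thus high at day 3 with retinoic acid and at day 6 with DMSO, and the difference between the 2 changes was 13.03 ± 0.43 on the log2 scale (adjusted p = 1.24e-12). Kdr shared that pattern in part, with 66.8, 53.7 and 78.6 CPM at D3RA and 8.11, 10.8 and 7.04 CPM at D6RA.

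Among single genes called in the same direction by both tests, the largest differences upward were those of Fli1, Ankrd1 (11.81 ± 1.06), Hapln1 (11.77 ± 0.44), Tgfbi (11.31 ± 0.87) and Clec1b (10.53 ± 0.57). Ankrd1 was at 0.364, 1.63 and 1.37 CPM at D3RA and at 0.0993, 0 and 0.125 CPM at D6RA, so its level of about 50 CPM was reached at D6DMSO alone among the 5 groups. Meox1 fell from 4.01, 4.56 and 3.20 CPM at D3RA to 0.43, 0.205 and 0.438 CPM at D6RA, a difference of 7.66 ± 0.69. Ryr2 differed less, since it also rose with retinoic acid from 3.37, 1.63 and 2.74 CPM to 11.8, 10.0 and 9.96 CPM (difference 2.47 ± 0.37, adjusted p = 3.39e-05). Hoxb9 reached 292, 314 and 259 CPM at D6RA from 46.5, 57.7 and 57.6 CPM at D3RA, above its D6DMSO level at the end of a smaller change.

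The largest differences downward were those of Enpp2 (-7.70 ± 0.43), Pid1 (-6.70 ± 0.31), Slc44a5 (-6.62 ± 0.28), Fgf15 (-6.56 ± 0.48) and Dll1 (-6.21 ± 0.26), each of which fell with DMSO and rose with retinoic acid. Dll1 was at 61.2, 58.6 and 73.1 CPM at D3RA and at 271, 284 and 282 CPM at D6RA. Enpp2, the enzyme autotaxin, went from 199, 78.6 and 150 CPM to 7.45, 9.11 and 7.35 CPM with DMSO, and from 0.546, 0.977 and 1.37 CPM to 12.4, 13.6 and 12.1 CPM with retinoic acid. The streak gene T was under 1 CPM in all 6 libraries with retinoic acid, so its difference of -3.48 ± 0.65 compares a large fall with a change close to 0 counts. Neural genes had a median log2 change of 1.35 with retinoic acid against -0.56 with DMSO, and 20 of 31 had a lower change with DMSO.

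**Figure D5:**
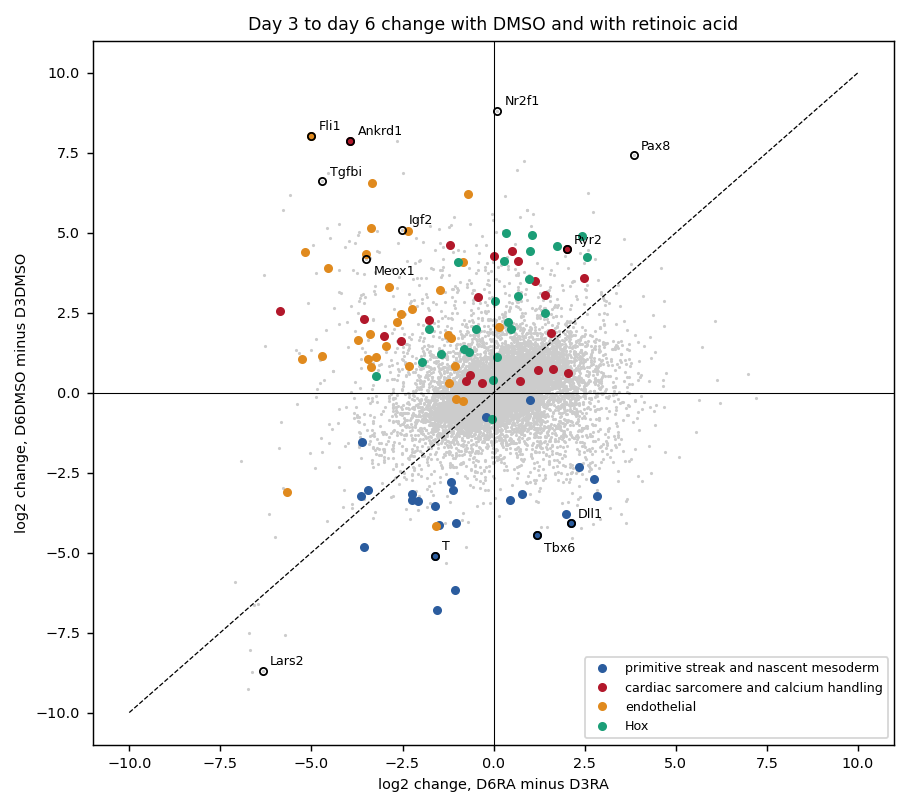
Log2 change between day 3 and day 6 with DMSO (vertical axis) against that with retinoic acid (horizontal axis), 1 point per gene, with 4 gene lists coloured and 12 named genes ringed; the dashed line marks equal change. Most endothelial genes lie at the upper left and most Hox and sarcomere genes above the line, while streak genes lie below 0 on the vertical axis.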

How the data were processed

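RNA was measured in 15 libraries (5 groups of 3), made per the labels' protocols with a stranded total RNA kit after removal of ribosomal RNA and read as single ends. The authors deposited 1 table of log2 values for 14717 genes. The submitters' processing notes name Trimmomatic 0.32, STAR 2.6.0c, featureCounts, edgeR, limma and the mm9 build, without roles, so the making of the table, the strand setting and the gene annotation are not given in the sources used here. From the values, each deposited log2 equals log2(count + 0.5) plus a constant per library: 100% of values came out whole within 0.05.

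CPM was computed from the recovered counts with library sizes set by those constants, so that CPM and the log2 values have the same scale. Gene symbols came from the reference tables for 14228 identifiers, and 489 were left without. The test was limma 3.58.1 (R 4.3.3) with a variance trend on the deposited log2 values, fitted to all 5 groups (10 residual degrees of freedom) with adjustment over all 14717 genes. The groups share 1 estimate of the spread. The difference between the DMSO and retinoic acid changes is a contrast of the same fit. Changes are on the log2(count + 0.5) scale. The 0.5 counts are worth more CPM at D3DMSO than at D6DMSO, so the change of genes near 0 depends on them in size and sign, and 2 genes were called lower with a CPM that was not lower.

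The members and the 25 gene lists (597 genes, 462 measured) were chosen with earlier results of these data known. Named genes were the 4 markers, the 10 largest called changes each way among genes that reached 10 CPM in a group mean without overlap (predicted genes and small RNAs left out), the 3 largest each way of each list at 1 CPM or more, and the 5 largest differences each way from retinoic acid. Other genes named were chosen after their values were seen. Replicate numbers were not used as pairs: the correlation of same-numbered D3DMSO and D6DMSO libraries was 0.054, -0.076 and 0.067. Motifs were searched with Python 3.11.15 in RefSeq promoters (GRCm38.p6), the Meox1 promoter not being in that table. On simulated counts with 50 changed genes a size among 14717, the test recovered 24% of 1.5-fold, 66% of 2-fold, 98% of 4-fold and 100% of 8-fold changes. The simulation set the same spread for every gene and changed far fewer genes than were called in the data. Its rates therefore do not give the sensitivity of the comparison itself. With 3 libraries a group, an exact permutation test could not go below 0.10. Counting intervals cover counting error only. The mitochondrial genes and the chromatin data were left out. Single values of 4 further list members are not reported here.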

Additional observations from a re-analysis of the deposited data

Results flagged for a closer look

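The change from day 3 to day 6 differed between DMSO and retinoic acid, by the limma test of the difference itself, for 12 named genes whose changes were called with opposite signs in the 2 treatments. The difference on the log2 scale (DMSO minus retinoic acid) was 13.03 for Fli1, 11.81 for Ankrd1, 11.77 for Hapln1, 11.31 for Tgfbi, 10.53 for Clec1b and 7.66 for Meox1. It was -7.70 for Enpp2, -6.70 for Pid1, -6.62 for Slc44a5, -6.56 for Fgf15, -6.21 for Dll1 and -5.63 for Tbx6. The values of genes with libraries at 0 counts (Fli1, Ankrd1, Tgfbi and Clec1b) depend on the 0.5 counts added by the authors.

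Outside the comparison, the 11 mitochondrial genes took 49.8%, 51.8% and 55.8% of the counts in D6DMSO replicates 1, 2 and 3 and had 0 counts in every D0 and day 3 library. The part of this difference in the changes reported was not tested.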

How the results depend on the processing

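Of 26 alternatives, 2 (thinning to the smallest scaled size, and the compared groups alone with a replicate block) were chosen after seeing the data. The alternative without a filter repeated the main fit, which had none, so it could not differ and its 141 cases were the same by design. Leaving the mitochondrial genes out of the fit hardly changed it either (4161 genes higher and 4129 lower). Both are included wherever alternatives or cases are counted. Over the alternatives, the values of the genes named by the rule stayed on the same side of the threshold in 2851 cases, lost the call in 37 and changed sign in 0. Thinning every library to the smallest total outside the mitochondrial genes, which also replaces the deposited scaling by equal totals, moved the median change of all genes by 0.27. It left 858 genes called lower against 3466 higher (80.2% of calls higher, against 50.2%), 635 called 2-fold lower, and interaction counts of 1003 higher and 2249 lower. Thinning to the smallest scaled size gave interaction counts of 2239 and 2485. The cause of the lower counts beyond smaller libraries was not tested. Other settings gave 44.6% to 51.3% of calls higher. With a replicate block, 4234 genes were called higher and 4173 lower, and no call of a named gene was lost. Without 1 library at a time, 3632 to 4065 genes were called higher and 3590 to 4002 lower.

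Of 367 called members of the lists and named genes, 90 lost the call under at least 1 alternative and 4 (Lbx1, Cdk2, Mcm2 and Psat1) changed sign there at adjusted p of 0.665 or more. Across alternatives, 23 to 25 streak genes were called lower, 16 to 21 sarcomere genes and 22 to 27 endothelial genes higher, 11 to 13 anterior and 9 to 10 posterior Hox genes higher, and 13 to 20 pluripotency genes lower. Depth limited the low genes: 1 count was worth up to 0.205 CPM at D3DMSO, and folds against 0 to 3 counts there are bounds or wide intervals.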

Other observations

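Outside the lists, the largest further rises among genes that reached 10 CPM (chosen after their values were seen) included genes of several kinds. Alpk3, a kinase of the heart's sarcomere, went from 1.25 ± 0.52 to 45.7 ± 6.36 CPM (mean ± SD, n = 3; log2 change 5.16 ± 0.42 SE), and Camk2a, a calcium-dependent kinase, from 0.235 ± 0.153 to 13.1 ± 1.67 CPM. Adgra2, a receptor of brain vessel growth, went from 3.67 ± 0.883 to 127 ± 0.354 CPM and Tnc, the matrix protein tenascin C, from 0.998 ± 0.489 to 33.9 ± 4.46 CPM. Gata3 went from 1.05 ± 0.213 to 29.3 ± 2.7 CPM and Ahnak, a very large scaffold protein, from 38.1 ± 3.72 to 716 ± 101 CPM. Gad2, an enzyme that makes the transmitter GABA, went from 0.84 ± 0.695 to 17.2 ± 3.44 CPM and Asic2, an acid-sensing channel of neurons, from 0.963 ± 0.316 to 25.6 ± 2.73 CPM. The imprinted genes Zim1 (4.77 ± 1.18 to 112 ± 16 CPM) and Airn (2.49 ± 0.927 to 81.9 ± 6.93 CPM), the latter antisense to Igf2r and uncertain without the strand setting, rose as well. Among the further falls, Nt5e, the ectonucleotidase CD73, went from 135 ± 27.8 to 9.18 ± 1.01 CPM, the receptor Epha1 from 139 ± 21 to 15.4 ± 1.41 CPM and the kinase Pim2 from 119 ± 45.6 to 17.7 ± 3.96 CPM. All of these were called under every alternative run.

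Housekeeping families were lower by small amounts, where 28.3% of all genes were called higher and 28.1% lower. Nuclear genes of the respiratory chain were called lower in 72 of 91 and higher in 1 (median log2 change of -0.56, between -0.61 and -0.31 over the alternatives), and proteasome subunits lower in 29 of 37 and higher in 1 (-0.52, between -0.57 and -0.17). Cytosolic ribosomal protein genes were called lower in 46 of 79 and higher in 2 (-0.36, between -0.44 and -0.08). The smallest of these medians came with libraries thinned to equal totals, which moved the median of all genes up by 0.27 and called 14, 4 and 2 of the 3 families lower. Histone genes were called lower in 30 of 57 and higher in 8, and semaphorin and plexin genes, guidance cues of axons and vessels, higher in 14 of 28 and lower in 6 (median 0.37, between 0.29 and 0.57). Near-identical copies in the ribosomal and histone families can share reads, so single members are uncertain. The respiratory chain family as counted includes entries named as pseudogenes, such as Atp5k-ps2 and Uqcrh-ps2. The histone family includes H3f3aos, named as an opposite-strand gene. Of 342 zinc finger genes named Zfp, 100 were called higher and 80 lower with a median of 0.02, near the shares of all genes. With retinoic acid the medians were -0.70 for respiratory chain, -0.67 for proteasome, -0.94 for ribosomal protein and -0.93 for histone genes. These falls were thus not particular to DMSO. Of the 79 ribosomal protein genes, 49 had a higher change with DMSO than with retinoic acid and 0 a lower one.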
